A study of Homo sapiens with 6 samples.

Results

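The 36 genes described here encode keratins, uroplakins, desmosomal proteins and the adhesion molecule EPCAM. They were chosen by gene symbol from 60605 genes in a table of read counts, and all 36 symbols were matched to an Ensembl identifier. The cells were UMUC3, an established human bladder cancer line, and their RNA was sequenced. The TIM-1 group held 3 libraries from cells infected with TIM-1-PLVX-IRES-zsgreen, a lentiviral vector that carries TIM-1 (gene HAVCR1) together with the green fluorescent protein ZsGreen. The empty-vector group held 3 libraries from cells infected with PLVX-IRES-Zsgreen, which shares the backbone and the fluorescent protein. No untreated cells were included, so both groups carry the infection and ZsGreen. Nothing in the labels ties the replicates to separate cultures, and each p-value therefore reflects the spread among 6 libraries, some of which may be technical. The question was how forced TIM-1 expression changes the transcripts of these cells.

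Keratins are intermediate filament proteins that assemble as pairs of a type I and a type II chain. Simple epithelia use KRT8 with KRT18, basal cells of stratified epithelia and of the urothelium use KRT5 with KRT14, and the luminal umbrella cells of the bladder make KRT20 and the uroplakins, which form the membrane plaques of their surface. Desmosomes join neighbouring epithelial cells: desmogleins and desmocollins meet between the cells, plakoglobin (JUP) and plakophilins (PKP) bind their tails, and desmoplakin (DSP) links this plaque to the keratin filaments.

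UMUC3 cells kept a small part of this program. Of 11 genes tested, 0 passed for TIM-1 without pairing, against 0.0138% of all tested genes higher and 0% lower. With the replicate number as a block 1 passed, KRT18, which was lower. The block called 1.79% of all tested genes lower and 3.22% higher. Of the 36 genes, 10 had a mean of at least 1 CPM over the 6 libraries (CPM is the read count scaled to a common library size), 15 had reads but a lower mean, and 11 had no read in any library. The 10 were KRT18, PKP4, DSG2, KRT8, KRT80, PKP3, KRT10, KRT15, DSP and JUP, and they held 99.6% of all reads of the 36 genes. JUP (1.94 CPM) and DSP (2.04 CPM) lay nearest above the limit, and UPK1A (0.581 CPM) and KRT7 (0.570 CPM) nearest below it. The limit takes no account of gene length. Per kilobase of annotated exon, UPK1A (0.425 CPM) was above JUP (0.393 CPM) and DSP (0.202 CPM), and KRT7 (0.139 CPM) was below them. The same number, 10, stood above 1 CPM in the TIM-1 libraries alone and in the empty-vector libraries alone. The 11 genes without reads were KRT14, KRT6A, KRT6B, KRT20, KRT1, KRT4, UPK3A, DSG3, DSC3, PKP1 and EPCAM. A count of 0 in 6 libraries was taken to allow up to 3 reads, or 0.0306 CPM, with counting error only. Each library is a bulk sample, in which fewer cells that express a gene and less RNA per cell cannot be told apart.

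**Figure D1:**
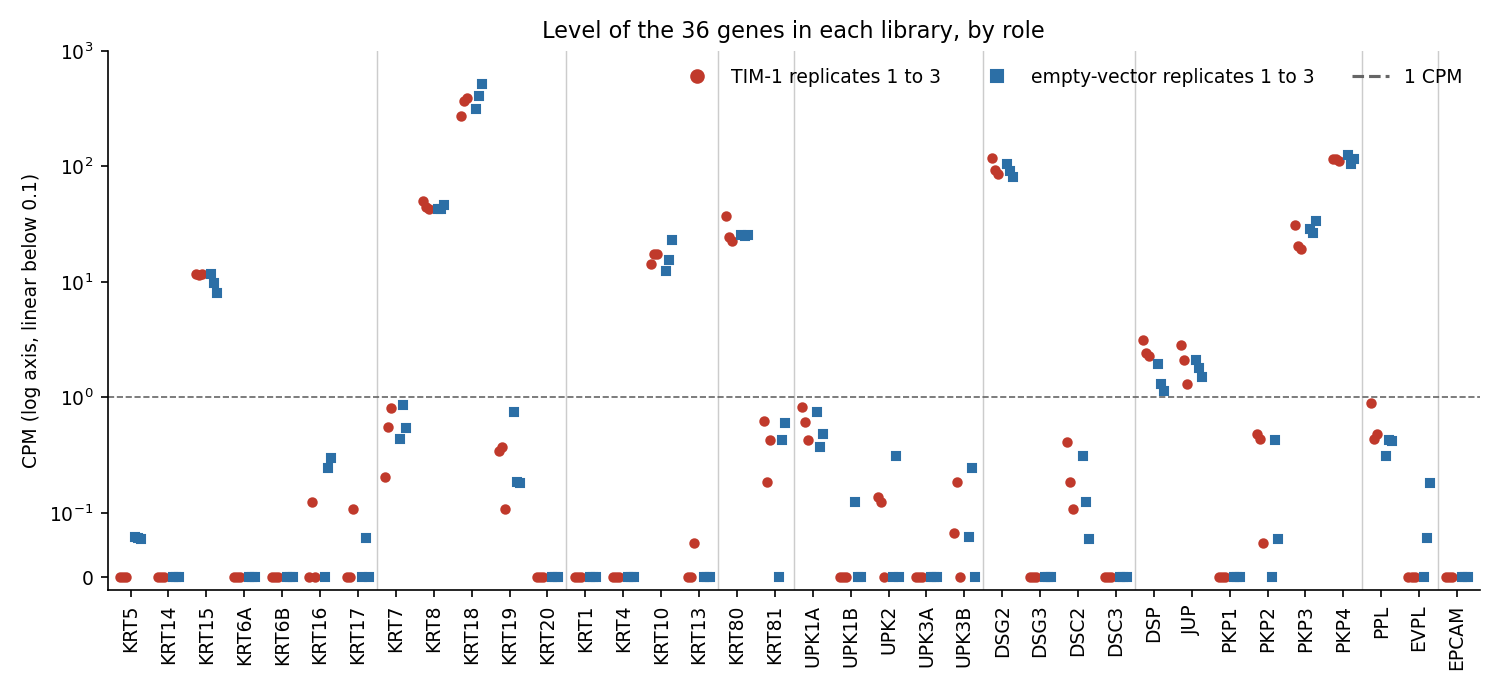
CPM of the 36 genes in each TIM-1 library (red circles) and each empty-vector library (blue squares), grouped by role, on an axis that is logarithmic above 0.1 CPM and linear below it. The dashed line marks 1 CPM, and 10 genes have a mean above it.

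Total counts ran from 14312387 to 18605914 in the TIM-1 libraries and from 15651864 to 17162935 in the empty-vector libraries. HAVCR1, the check of the labels, had 7069, 9824 and 11479 reads in TIM-1 replicates 1, 2 and 3, against 4, 0 and 0 reads in the empty-vector replicates. In both groups replicate 1 was unlike the other replicates: in an edgeR quasi-likelihood test with the group as a term, 11.6% of 14479 tested genes were higher and 12% lower in replicate 1. Of the 6 mesenchymal markers listed (VIM, CDH2, FN1, ZEB1, ZEB2, TWIST1), 6 were above 1 CPM. VIM, the mesenchymal intermediate filament gene, averaged 1639 ± 197 CPM in TIM-1 and 1818 ± 272 CPM in empty-vector libraries. ZEB1, a repressor of epithelial genes, averaged 148 ± 8.33 CPM in TIM-1 and 160 ± 6.04 CPM in empty-vector libraries (SD, n = 3 each). Of 6 leukocyte markers 5 had no read, and the list summed to at most 1 read per library in either group. Endothelial markers summed to at most 5 reads in a TIM-1 library and 1 read in an empty-vector library. Of 5 fibroblast markers only COL1A1, a collagen chain gene that tumour lines can express, was above 1 CPM, and DCN had no read.

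The basal keratins were almost silent. KRT14, the basal type I partner, and the stress keratins KRT6A and KRT6B had no read in any library. KRT5, the basal type II keratin, had 0 reads in each TIM-1 library and 1 read in each empty-vector library. KRT16 had 2 reads in the TIM-1 libraries together and 9 in the empty-vector libraries together, and KRT17 had 2 and 1. KRT15, a type I keratin of basal progenitor cells, was the exception, with 11.6, 11.4 and 11.8 CPM in TIM-1 replicates 1, 2 and 3, against 11.7, 9.71 and 8.08 CPM in the empty-vector replicates. The groups overlapped, and the TIM-1 libraries were the tighter of the groups. The difference of 0.24 on the log2 scale had an SE of 0.17 (edgeR adjusted p = 0.914). Leaving out empty-vector replicate 1 gave 0.38, and leaving out empty-vector replicate 3 gave 0.11. Among the other basal urothelial markers listed, CD44, a hyaluronan receptor that mesenchymal cells also express, averaged 673 ± 28.1 CPM in TIM-1 and 643 ± 51.4 CPM in empty-vector libraries (SD, n = 3 each). CDH3, the P-cadherin gene, averaged 1.10 ± 0.224 CPM in TIM-1 and 0.890 ± 0.570 CPM in empty-vector libraries (SD, n = 3 each). TP63, the basal master regulator, had 2 reads in the TIM-1 libraries together and 0 in the empty-vector libraries.

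The simple-epithelial pair KRT8 and KRT18 was retained and was uneven. KRT18, the type I chain, was the most abundant of the 36 genes per length, with 117 CPM per kilobase of annotated exon, above 98.6% of protein-coding genes. It stood at 272, 367 and 390 CPM in TIM-1 replicates 1, 2 and 3, against 314, 402 and 511 CPM in the empty-vector replicates. In each same-numbered pair the TIM-1 library was the lower, and replicate 1 was the lowest library of both groups, so the groups overlapped. KRT8, the type II chain, stood at 49.95, 44.4 and 43.0 CPM in the TIM-1 replicates, against 42.9, 42.9 and 46.0 CPM in the empty-vector replicates, with overlapping groups. Per kilobase of exon, KRT18 was 16.2 ± 4.08 times KRT8 with TIM-1 and 19.8 ± 4.06 times with the empty vector (SD, n = 3 each). The annotated exons of KRT8 reach far beyond its coding sequence. With the longest coding sequence as the length, a choice made after the data were seen, the ratios were 9.02 ± 2.27 and 11.01 ± 2.25.

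Other simple and luminal keratins were near or at the floor. KRT7, common in urothelial cells, had 3, 9 and 15 reads in TIM-1 replicates 1, 2 and 3, against 7, 14 and 9 in the empty-vector replicates. KRT19, a simple-epithelial type I keratin, had 5, 6 and 2 reads, against 12, 3 and 3. KRT20, the umbrella cell keratin, had none. EPCAM, the epithelial cell adhesion molecule, had none, and CDH1, the E-cadherin gene, had 2 reads, both in TIM-1 replicate 1. Thus 2 of 6 simple-epithelial markers, KRT8 and KRT18, were above 1 CPM.

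KRT8 and KRT18 have many processed pseudogenes, and reads can be shared with them. The table held 51 pseudogenes of KRT8 and 67 of KRT18, with 1662 and 147 reads over the 6 libraries, and KRT8P12 on chromosome 3 alone had 1443. The other 2 pseudogenes with the most reads were KRT8P33 with 128 and KRT18P5 with 61. Within the KRT8 coding sequence, 1256 of 1385 aligned bases (90.7%) were identical in KRT8P12. The longest identical run in the longest stretch without gaps was 53 bases. Of all runs of 50 bases in the transcript with the longest coding sequence, 41.3% for KRT8 and 31.8% for KRT18 also occurred in transcripts of other genes. The share was 39.1% for KRT6A, 47.1% for KRT6B, 23.8% for KRT14, 22.0% for KRT16, 16.0% for KRT17, 44.6% for KRT81 and 19.6% for UPK3B, so the counts of these genes are uncertain. It was 0% for KRT20, KRT1, KRT4, KRT10 and UPK3A. KRT8 pseudogenes held 26.3 ± 5.48% of the reads of KRT8 and its pseudogenes in TIM-1 libraries and 28.5 ± 2.21% in empty-vector libraries (SD, n = 3 each). KRT8P12 is annotated as a transcribed pseudogene. Whether its reads came from KRT8 or from its own transcript was not tested. Adding pseudogene counts to their parents gave KRT8 a log2 fold change of 0.02, against 0.06 without them. The same addition, made after the data were seen for this ratio, lowered the mean KRT18 to KRT8 ratio per kilobase of exon over 6 libraries to 13.1, against 18.02 without them. The annotated spans of KRT8 and KRT18 also overlap on opposite strands, and the sources used here do not state whether counting used strand.

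Of the keratins of differentiated stratified epithelia, KRT10 remained. KRT10, the type I keratin of suprabasal epidermis, stood at 14.4, 17.3 and 17.4 CPM in TIM-1 replicates 1, 2 and 3, against 12.5, 15.5 and 23.2 CPM in the empty-vector replicates. The TIM-1 values lay within the range of the empty-vector values, and replicate 1 was lowest in both groups. KRT1, its epidermal partner, and KRT4, of mucosal epithelia, had no read, and KRT13, the partner of KRT4, had 1. KRT10 overlaps KRT10-AS1 on the opposite strand, which had 799 reads. KRT80, a type II keratin of late differentiation, stood at 37.5, 24.3 and 22.7 CPM in the TIM-1 replicates, against 25.4, 25.1 and 25.4 CPM in the empty-vector replicates. TIM-1 replicate 1 was the high library, and without that library the log2 fold change of 0.15 became -0.11. KRT81, a hair keratin, had 20 reads with TIM-1 and 17 with the empty vector.

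The retained keratins were few within their gene clusters. On GRCh38, the type II cluster on chromosome 12 runs from 52168996 (KRT80) to 52949954 (KRT8), with KRT18 as its type I neighbour. Of its 26 type II genes, KRT80 and KRT8, the first and the last in order, were above 1 CPM and 14 had no read. The type I cluster on chromosome 17, from 40654665 to 41624842, held 28 genes, of which 19 had no read. KRT10, KRT15 and KRT32 were above 1 CPM there. KRT32, a hair keratin outside the 36 genes and noticed after its values were seen, had 114 reads in all and 1.20 CPM on average. Of 17 further keratin genes listed for comparison, 0 reached 1 CPM, and KRT79 and KRT2 had the highest means with 23 and 10 reads in all.

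**Figure D2:**
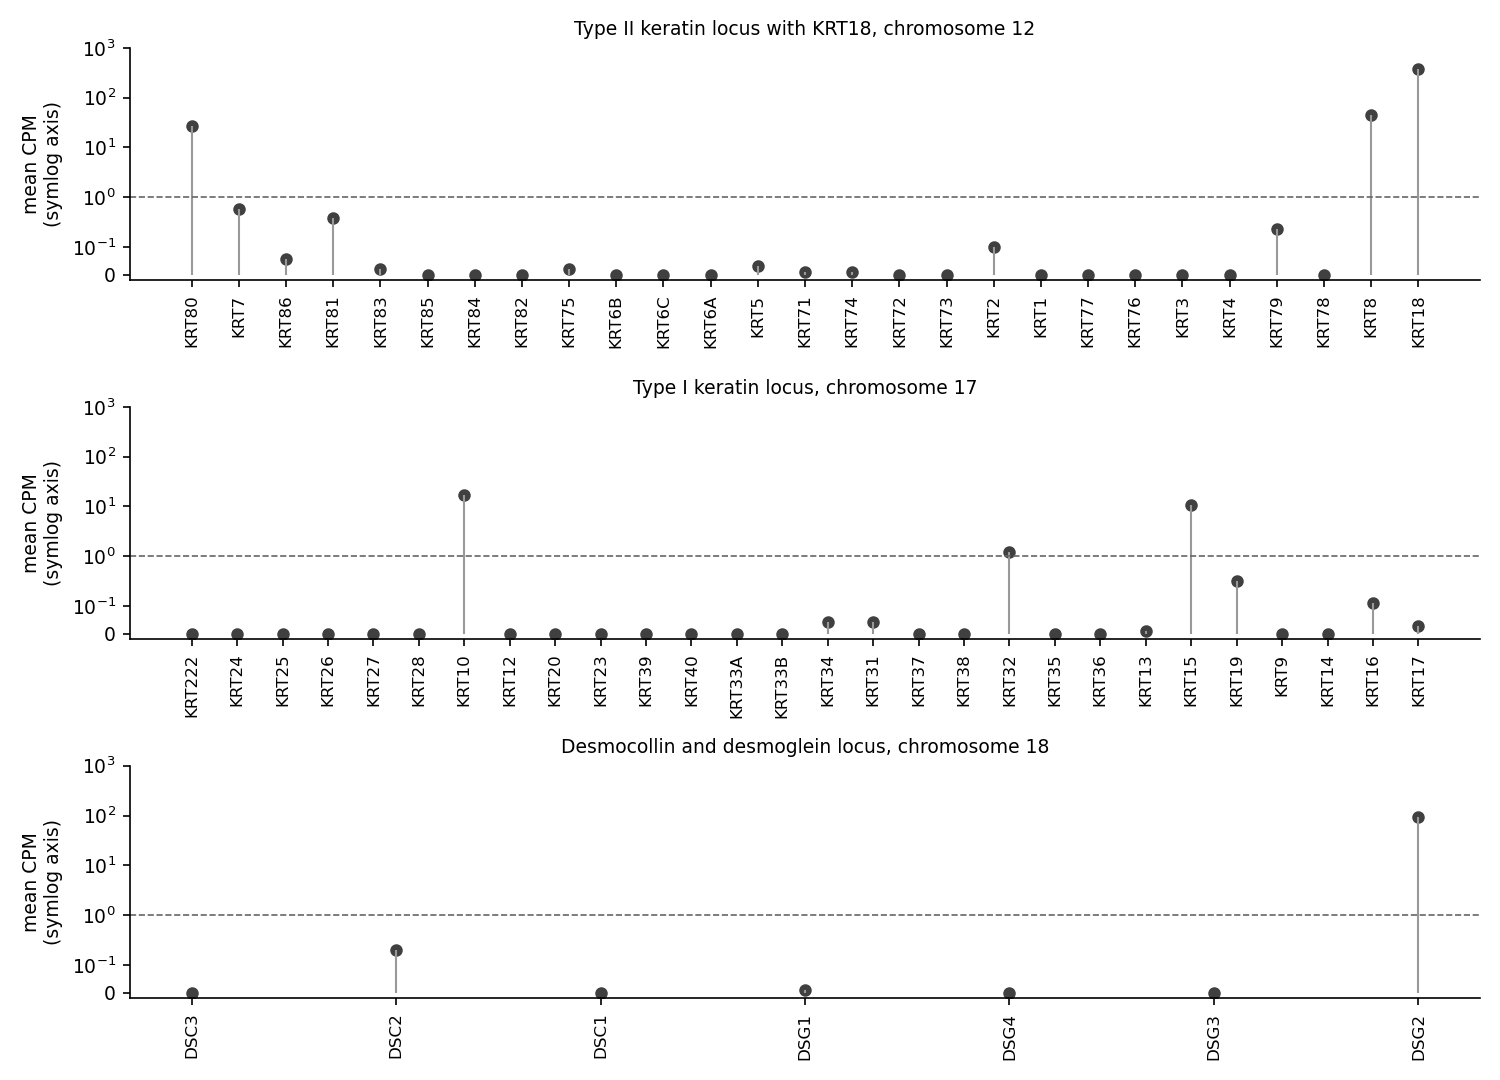
Mean CPM over the 6 libraries of every protein-coding keratin, desmoglein and desmocollin gene of 3 clusters, in chromosomal order. The dashed line marks 1 CPM. KRT80, KRT8 and KRT18 stand at the ends of the chromosome 12 cluster, and DSG2 at the end of the chromosome 18 cluster.

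The uroplakins were at trace level or silent. UPK1A, a tetraspanin of the urothelial plaque, had 12, 10 and 8 reads in TIM-1 replicates 1, 2 and 3, against 12, 6 and 8 in the empty-vector replicates, and was the only uroplakin to pass the filter on low counts. The log2 difference of 0.21 (SE 0.47) did not pass (edgeR adjusted p = 0.970). UPK1B, the other tetraspanin, had 0 reads with TIM-1 and 2 with the empty vector. UPK2, which pairs with UPK1A, had 4 and 5, UPK3B had 4 and 5, and UPK3A, which pairs with UPK1B, had none. UPK2 overlaps BCL9L on the opposite strand, which had 6186 reads. All 5 uroplakins together gave 8 to 15 reads per library in the TIM-1 group and 8 to 15 in the empty-vector group. Of the 8 luminal urothelial markers, 3 were above 1 CPM, and these were the transcription factor genes PPARG, FOXA1 and GATA3. GATA3 was above it through the empty-vector libraries (mean 1.92 CPM), and its mean in the TIM-1 libraries was 0.801 CPM.

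The desmosomal cadherins came down to DSG2, the desmoglein found in all desmosome-bearing tissues. DSG2 stood at 118, 92.3 and 85.4 CPM in TIM-1 replicates 1, 2 and 3, against 104, 91.6 and 80.5 CPM in the empty-vector replicates. Replicate 1 was the highest library of both groups and each TIM-1 library was above its same-numbered partner, with a log2 fold change of 0.10 (SE 0.14, edgeR adjusted p = 0.941). DSC2, the widely expressed desmocollin, had 11 reads with TIM-1 and 8 with the empty vector. Per kilobase of exon the levels were 15.4 CPM for DSG2 and 0.0161 CPM for DSC2. Per kilobase of the longest coding sequence they were 28.4 CPM and 0.0743 CPM. DSG3 and DSC3, of basal stratified epithelia, had no read. The 7 genes of this cluster lie on chromosome 18 from 30990008 to 31549008. DSG2 is the last of them, and DSC1, DSG4, DSG3 and DSC3 had 0 reads. The promoters of the 4 listed cadherins, from 250 bases before to 50 after the gene start in RefSeq (GRCh38.p14), are shown because neighbouring genes of one locus differ so widely in level. Each is written on its gene's strand, with CG dinucleotides in capitals.
DSG2: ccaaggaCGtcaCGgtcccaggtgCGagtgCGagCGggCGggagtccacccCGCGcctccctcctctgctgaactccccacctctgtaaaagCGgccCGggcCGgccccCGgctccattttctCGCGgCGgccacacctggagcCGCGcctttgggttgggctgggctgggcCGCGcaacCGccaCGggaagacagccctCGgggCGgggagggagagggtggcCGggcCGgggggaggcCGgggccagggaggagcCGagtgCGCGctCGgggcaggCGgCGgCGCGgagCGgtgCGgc
DSG3: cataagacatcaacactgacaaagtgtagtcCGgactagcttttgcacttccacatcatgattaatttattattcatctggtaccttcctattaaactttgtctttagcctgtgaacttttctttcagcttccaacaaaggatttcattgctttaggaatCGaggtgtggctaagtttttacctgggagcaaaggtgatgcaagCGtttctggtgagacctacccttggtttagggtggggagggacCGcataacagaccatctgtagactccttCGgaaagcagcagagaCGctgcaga
DSC2: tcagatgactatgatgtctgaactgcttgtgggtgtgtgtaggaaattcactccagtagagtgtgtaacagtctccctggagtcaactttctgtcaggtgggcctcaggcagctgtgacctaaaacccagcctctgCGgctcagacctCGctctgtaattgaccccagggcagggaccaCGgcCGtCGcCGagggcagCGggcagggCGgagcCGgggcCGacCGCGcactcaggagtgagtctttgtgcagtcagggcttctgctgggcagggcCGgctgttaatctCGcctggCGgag
DSC3: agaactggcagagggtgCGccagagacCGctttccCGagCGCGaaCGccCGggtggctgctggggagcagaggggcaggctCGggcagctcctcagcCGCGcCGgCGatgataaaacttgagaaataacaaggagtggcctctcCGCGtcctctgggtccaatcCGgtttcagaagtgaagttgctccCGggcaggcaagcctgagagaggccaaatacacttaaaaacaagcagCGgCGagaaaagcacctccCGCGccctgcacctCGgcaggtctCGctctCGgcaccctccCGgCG
DSG2 (chr18:31497927-31498226, plus strand) held 36 CG dinucleotides and DSG3 (chr18:31447491-31447790, plus strand) held 6. DSC2 (chr18:31102372-31102671, minus strand) held 15, and DSC3 (chr18:31042693-31042992, minus strand), which had no read, held 25. Over 27305 promoters of this length the median was 14. RefSeq promoters were matched for 16 of the 36 genes. The median was 27 over 6 genes above 1 CPM, 7 over 5 trace genes and 6 over 5 genes without reads, with ranges of 1 to 37, 2 to 15 and 2 to 25. KRT10 (1) and KRT8 (2) were the lowest of the 6, and the desmosomal genes DSP (37), DSG2 (36), PKP4 (31) and JUP (23) were the highest. DSP and JUP were close to the limit of 1 CPM, and KRT18, the most abundant gene, had no matched promoter. The RefSeq start used for KRT8 lies inside the longer GENCODE 29 span of the gene, not at its outer end. These counts are a description with no test.

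The plaque proteins were kept unevenly. PKP4, an armadillo protein found at several kinds of junction, stood at 117, 116 and 110 CPM in TIM-1 replicates 1, 2 and 3, against 126, 105 and 117 CPM in the empty-vector replicates. These values overlapped closely, with a log2 fold change of -0.02 (SE 0.09, edgeR adjusted p = 0.987). PKP3, an epithelial plakophilin, stood at 31.3, 20.5 and 19.2 CPM in the TIM-1 replicates, against 28.6, 26.6 and 33.4 CPM in the empty-vector replicates. TIM-1 replicates 2 and 3 lay below every empty-vector library, and TIM-1 replicate 1 lay above 2 of them. This gave a log2 difference of -0.32 with an SE of 0.19 (edgeR adjusted p = 0.893). With pairing over all 6 libraries it was -0.34 and did not pass either (edgeR adjusted p = 0.119). Without replicate 1 of both groups it was -0.60 with pairing (edgeR adjusted p = 0.00157) and -0.60 without it (edgeR adjusted p = 0.0302), the unpaired value being added after the data were seen. With pairing and without the replicate 3 pair it was -0.11 (edgeR adjusted p = 0.751). PKP2, the partner of DSG2 in simple epithelia and heart, had 15 reads with TIM-1 and 8 with the empty vector, and PKP1, of stratified epithelia, had none.

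DSP, which ties the plaque to keratin, was low, and it was the tested gene of the 36 whose groups did not overlap. It had 46, 39 and 42 reads in TIM-1 replicates 1, 2 and 3, against 31, 21 and 19 in the empty-vector replicates. In CPM this was 3.17, 2.41 and 2.27 with TIM-1, against 1.94, 1.299 and 1.146 with the empty vector. Every TIM-1 library lay above every empty-vector library, as was so for 6.6% of all tested genes, and another 5.06% had every TIM-1 library below. The log2 fold change of 0.83 (SE 0.31) had an unadjusted p of 0.0231 and did not pass over all genes (edgeR adjusted p = 0.807, and 0.1003 with replicate numbers as a block). JUP, which encodes plakoglobin, stood at 2.83, 2.10 and 1.295 CPM in the TIM-1 replicates, against 2.13, 1.79 and 1.51 CPM in the empty-vector replicates. The groups overlapped, and replicate 1 was the highest library of each. The envelope plakins PPL and EVPL were at trace level, with 29 reads for PPL in the TIM-1 libraries together and 19 in the empty-vector libraries, and 0 and 4 for EVPL.

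In the edgeR quasi-likelihood test without pairing, 11 of the 36 genes passed the filter on low counts, and 0 of the 11 were higher and 0 lower with TIM-1. Over all 14479 tested genes 0.0138% were higher and 0% lower, so a count of 0 is near the background. DSP was the 1 gene of the 11 with an unadjusted p under 0.05, and DESeq2 without pairing called 0 of 12. The median log2 fold change of the 11 was 0.10, with a range of -0.32 to 0.83, and 7 were above 0. The median over all tested genes was -0.00075. The median size of the change, regardless of sign, was 0.18 over the 11 and 0.12 over all tested genes. The filter kept the genes with more reads, so these values do not describe all 36.

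With the replicate number as a block, KRT18 fell with TIM-1, by 0.24 on the log2 scale (SE 0.06, edgeR adjusted p = 0.00946). It was the 1 called gene of the 11, and 0 rose, against 1.79% of all tested genes lower and 3.22% higher. Without pairing the log2 fold change of KRT18 was -0.25 (SE 0.19, edgeR adjusted p = 0.917). The paired call held by DESeq2 (adjusted p = 0.0337) and without the replicate 1 pair (edgeR adjusted p = 0.0298). It did not pass without the replicate 2 pair, at -0.30 (edgeR adjusted p = 0.0632), without the replicate 3 pair, at -0.17 (edgeR adjusted p = 0.147), or with a block for replicate 1 alone, at -0.25 (edgeR adjusted p = 0.0599). In unpaired fits the size was -0.42 when empty-vector replicate 1 was left out and -0.06 when empty-vector replicate 3 was.

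**Figure D3:**
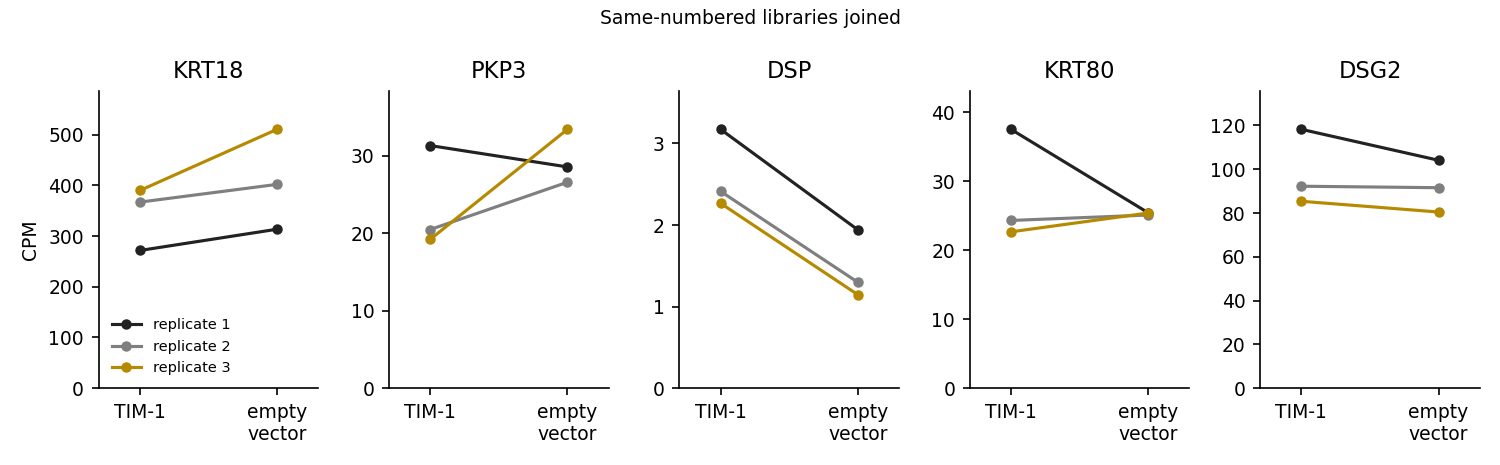
CPM of KRT18, PKP3, DSP, KRT80 and DSG2 in each library, with same-numbered TIM-1 and empty-vector libraries joined by a line and each vertical axis starting at 0. KRT18 is lower and DSP higher with TIM-1 in 3 of 3 pairs, while the lines of PKP3 cross.

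Replicate 1 differed from replicates 2 and 3 in several of the same genes. With the group as a term, KRT18 was lower in replicate 1, at -0.51 on the log2 scale (edgeR adjusted p = 5.58e-05), and so was KRT10, at -0.45 (edgeR adjusted p = 0.0319). DSG2 was higher by 0.35 (edgeR adjusted p = 0.00159) and KRT80 by 0.36 (edgeR adjusted p = 0.0346). So 2 of the 11 were higher and 2 lower, against 11.6% and 12% of all tested genes. For KRT80 the within-group differences were 0.66 in the TIM-1 libraries and 0.01 in the empty-vector libraries, and for PKP3 0.65 and -0.07. For KRT18 they were -0.48 and -0.54, and for DSG2 0.41 and 0.27. Whether what sets replicate 1 apart has a part in the TIM-1 differences was not tested. Without replicate 1 the paired log2 differences were -0.26 for KRT18, -0.60 for PKP3 and -0.11 for KRT80, against -0.24, -0.34 and 0.12 with it.

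**Figure D4:**
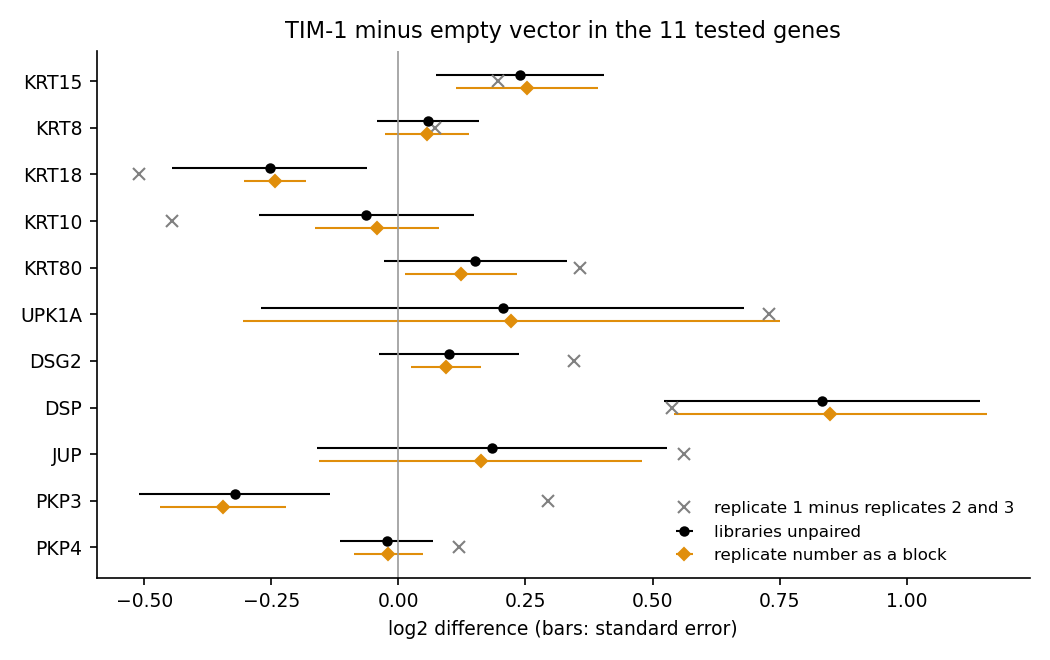
Log2 difference between TIM-1 and empty-vector libraries for the 11 tested genes, without pairing (black circles) and with the replicate number as a block (orange diamonds), with bars of 1 standard error. Grey crosses give replicate 1 minus replicates 2 and 3. DSP has the highest value at 0.83, and KRT18 is the gene called with the block.

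Genes that work beside these were taken from lists chosen by function. Of 7 tested hemidesmosome genes, which anchor basal cells to the matrix, 0 passed without pairing (0.0138% of all tested genes were higher and 0% lower) and 2 rose with the block, LAMB3 and ITGA6 (3.22% of all tested genes were higher and 1.79% lower). LAMB3, a laminin-332 chain gene, stood at 31.6, 35.4 and 32.9 CPM in TIM-1 replicates 1, 2 and 3, against 18.4, 18.1 and 20.3 CPM in the empty-vector replicates. The groups lay far apart, with a log2 fold change of 0.82 (SE 0.11, edgeR adjusted p = 0.0892) without pairing and 0.81 (edgeR adjusted p = 8.31e-08) with it, and DESeq2 without pairing called it (adjusted p = 1.88e-05). ITGA6, the integrin chain of hemidesmosomes, rose by 0.27 with the block (edgeR adjusted p = 0.0111), a call lost without the replicate 2 pair (0.324) and the replicate 3 pair (0.0603). ITGB4, the integrin partner of ITGA6, was under 1 CPM.

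Of 10 tested regulators of epithelial identity, 0 passed without pairing, and with the block PPARG rose and GATA3 fell, against 3.22% of all tested genes higher and 1.79% lower. PPARG, a nuclear receptor of luminal urothelium, averaged 8.08 ± 0.487 CPM in TIM-1 and 5.25 ± 0.748 CPM in empty-vector libraries (SD, n = 3 each), with a paired log2 fold change of 0.62 (edgeR adjusted p = 0.0185). The call was lost without each of the 3 pairs in turn (edgeR adjusted p from 0.0593 to 0.150). GATA3, a luminal transcription factor, averaged 0.801 ± 0.142 CPM in TIM-1 and 1.92 ± 0.690 CPM in empty-vector libraries (SD, n = 3 each), with a paired log2 fold change of -1.25 (edgeR adjusted p = 0.0457), lost without the replicate 2 pair (0.319) and the replicate 3 pair (0.382). Of the 19 regulators listed, 10 were above 1 CPM, 4 had fewer reads and 5 had none. Those above 1 CPM that promote epithelial differentiation were KLF5, GRHL1, PPARG, FOXA1 and GATA3. The others above it were ZEB1, ZEB2, SNAI1, SNAI2 and TWIST1, and ZEB1, ZEB2 and TWIST1 are also among the mesenchymal markers. Among those that promote epithelial differentiation, named after their counts were seen, KLF5 averaged 12.2 ± 1.63 CPM in TIM-1 and 10.2 ± 0.992 CPM in empty-vector libraries. GRHL1 averaged 6.09 ± 1.07 CPM in TIM-1 and 5.77 ± 0.924 CPM in empty-vector libraries (SD, n = 3 each). OVOL2, ESRP2 and GRHL3 had 15, 18 and 6 reads in all, and GRHL2, OVOL1, ESRP1, ELF3 and EHF had none.

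Of 12 tested genes of adherens and tight junctions, 6 of intermediate filaments other than keratins and 3 of the cornified envelope, 0 passed with or without the block. Over all tested genes 0.0138% were higher and 0% lower without pairing, and 3.22% higher and 1.79% lower with the block. Counts of 0 in lists this short are therefore near the background. The catenin genes CTNNA1 and CTNNB1, which link cadherins to actin, averaged 692 ± 35.5 and 317 ± 15.2 CPM in TIM-1 libraries, and 637 ± 25.4 and 312 ± 8.91 CPM in empty-vector libraries (SD, n = 3 each). LMNA, which encodes the nuclear lamins A and C, averaged 650 ± 103 CPM in TIM-1 and 686 ± 51.7 CPM in empty-vector libraries. FLG, the filaggrin gene of the epidermis, had 12, 30 and 31 reads in the TIM-1 replicates, against 9, 11 and 6 in the empty-vector replicates. Its mean over the 6 libraries was 0.994 CPM, with 1.45 CPM in TIM-1 and 0.535 CPM in empty-vector libraries. FLG passed the filter on low counts, and was abundant enough to be named, through the TIM-1 libraries. Its difference is therefore given as a description and not as support for a change. Every TIM-1 library was above every empty-vector library in CPM, as was so for 6.6% of all tested genes. Another 5.06% had every TIM-1 library below. The log2 difference of FLG was 1.44 without pairing (edgeR adjusted p = 0.676) and 1.42 with it (edgeR adjusted p = 0.0506). Its paired value passed without the replicate 1 pair, at 1.76 (edgeR adjusted p = 0.0300). CNFN, a cornified envelope gene, averaged 1.25 ± 0.150 CPM in TIM-1 and 1.11 ± 0.364 CPM in empty-vector libraries (SD, n = 3 each). Of 5 other desmosomal genes, PERP, a membrane protein of desmosomes, averaged 135 ± 3.49 CPM in TIM-1 and 132 ± 6.15 CPM in empty-vector libraries (SD, n = 3 each), and DSG1 had 1 read in all. COL1A1, the fibroblast marker, had overlapping groups and a log2 difference of 0.89 without pairing (edgeR adjusted p = 0.775), which was 0.58 without TIM-1 replicate 1 and 1.24 without empty-vector replicate 1. It rose with the block by 0.90 (edgeR adjusted p = 0.000265) and was also higher in replicate 1 by 0.83 (edgeR adjusted p = 0.000475), and its part in the other differences was not tested.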

How the data were processed

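The authors deposited 1 table of raw read counts per Ensembl gene, with 1 column per library and no normalization. HISAT2 2.0.5, featureCounts 1.5.0-p3, DESeq2 1.16.1 and the build hg38 are named in the submitters' processing notes. How strand and multi-mapping reads were handled, and with which annotation, is not stated in the sources used here. Symbols were found for 60463 of 60605 identifiers, and 58337 were in GENCODE 29 (GRCh38), which gave positions, exon lengths and transcripts.

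The treatment labels gave the groups, and the titles gave the replicate numbers. Counts were tested with the edgeR 4.0.16 quasi-likelihood F test (robust, TMM factors) in R 4.3.3, on 14479 genes kept by filterByExpr with a minimum count of 10. Two-sided p-values had Benjamini-Hochberg adjustment across those genes, and calls were made below 0.05. A positive log2 fold change is higher with TIM-1, its standard error comes from the F statistic, and CPM uses TMM-scaled library sizes. The unpaired fit left 4 residual degrees of freedom and the fit with the replicate block 2, and leaving out a pair left fewer. A call lost without a pair can therefore reflect lower power. DESeq2 1.42.0 served as an alternative. Promoters came from RefSeq tables, and KRT8 was aligned to KRT8P12 with Biopython 1.88.

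The deviations from the group means, taken over genes, correlated between same-numbered libraries at 0.638, 0.340 and 0.363 for replicates 1, 2 and 3, above the limit of 0.1 for taking numbers as pairs. TIM-1 replicate 3 with empty-vector replicate 2 reached 0.354, so only replicate 1 is clearly paired. Libraries of a group differed by more than sampling noise (chi-square per degree of freedom from 4.16 to 27.5).

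The 36 genes and all lists were chosen with earlier results of these data known. All members are accounted for, and those of at least 1 CPM have their values in every library. From each other list up to 3 called genes of smallest p are named, or the 2 most abundant where none was called, and of keratin pseudogenes the 3 with the most reads. Intervals and floors cover counting error only.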

Additional observations from a re-analysis of the deposited data

How the results depend on the processing

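The number of members above 1 CPM was 10 in every setting that left out a library and 12 or 9 with limits of 0.5 or 2 CPM. Over all genes the unpaired test called 2. It called 725 with the replicate block, 510 with replicate 1 alone as a block, 72 without the low-count filter, 25 by DESeq2, 209 by DESeq2 with the replicate block, and 257 without replicate 1 of both groups, a setting added after the data were seen. Leaving out 1 library gave 1 to 9 calls, and the replicate block without the replicate 1, 2 or 3 pair gave 838, 209 and 473. Of the members, 0 were called in the unpaired test, 1 with the replicate block, 1 by DESeq2 with the replicate block and 1 without replicate 1 of both groups. The replicate block called 2 members without the replicate 1 pair and 0 without either of the others. The block changed no other member call than that of KRT18. Other normalizations and the stricter filter left 0 members called. Of 487 single-gene values under alternatives, 430 kept direction and side of the threshold, 31 became called and 26 changed sign, of which 0 were called.

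With 1 library left out, log2 fold changes ran from -0.0085 to 0.10 for KRT8, from -0.25 to 0.22 for KRT10, from -0.11 to 0.29 for KRT80, from -0.035 to 0.52 for UPK1A, from -0.052 to 0.19 for DSG2, from -0.10 to 0.44 for JUP and from -0.092 to 0.038 for PKP4. They ran from -0.12 to 0.82 for CDH3, from -0.079 to 0.34 for CNFN and from -0.020 to 0.047 for CTNNB1. Without replicate 1 of both groups, the values with and without the replicate block were -0.029 and -0.029 for KRT8, -0.11 and -0.11 for KRT80, 0.022 and 0.021 for PKP4, -0.12 and -0.12 for CNFN, and -0.020 and -0.020 for CTNNB1. With the replicate block and without the replicate 3 pair they were 0.18 for KRT10, 0.014 for PKP4 and 0.025 for LMNA. The causes of these differences were not tested. The few reads of DSP and of the genes under 1 CPM limit what could be seen.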

Other observations

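Among the junction genes, CLDN1, which encodes a tight junction claudin, had 32, 239 and 268 reads in TIM-1 replicates 1, 2 and 3, against 61, 229 and 257 in the empty-vector replicates. It was lower in replicate 1 by a log2 difference of -2.28 (edgeR adjusted p = 1.62e-09), and OCLN, the occludin gene, by -0.50 (edgeR adjusted p = 0.00374). NES, the nestin gene, was higher in replicate 1 by 1.03 (edgeR adjusted p = 0.00610), while VIM was lower by -0.29 (edgeR adjusted p = 0.00316). The TIM-1 log2 fold changes of CLDN1 and OCLN were -0.08 and 0.03 (edgeR adjusted p = 0.994 and 0.992). These genes were named after their values were seen.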
